A study of Mus musculus with 480 samples.

Results

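The subunits of oxidative phosphorylation were followed in 480 single lung epithelial cells from mice. Of 53379 genes in the count table, 89 nuclear and 13 mitochondrial genes were taken as members: every protein-coding gene whose symbol starts with Nduf, Uqcr, Atp5 or Cox4 to Cox8, and the protein-coding genes of mitochondrial DNA. The nuclear members were 36 subunits of complex I and 8 of its assembly factors, 8 subunits of complex III, 20 of complex IV and 17 of complex V. The mitochondrial members were 7 subunits of complex I, 1 of complex III, 3 of complex IV and 2 of complex V. The rule used names only and no measured value, though it was set with earlier results of these data known.

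The cells were tdTomato-positive and came from 3 reporter lines, 160 cells each, on 5 plates of 96 wells. BASCs-Tracer mice carry Sftpc-DreER, Scgba1a1-CreER and R26-RSR-LSL-tdtomato, a reporter that both recombinases must open, and were made to mark bronchioalveolar stem cells (BASCs), which sit where the small airway meets the alveoli. Scgb1a1-TD mice carry Scgba1a1-CreER and R26-tdtomato, and Sftpc-TD mice carry Sftpc-DreER and R26-RSR-tdtomato, so that the club cell promoter or the type 2 alveolar (AT2) promoter alone drives the label. All 3 share a tdTomato reporter at R26 and a drug-inducible recombinase. The sources used here do not give the inducing treatment, the ages or the number of mice. Annotated sub-types gave 8 groups of 5 or more cells. BASCs-Tracer had 15 club cells, 6 AT2 cells, 1 ciliated cell and otherwise BASCs. Scgb1a1-TD had 97 club cells, 38 BASCs, 24 ciliated cells and 1 AT2 cell. Sftpc-TD had 11 BASCs and otherwise AT2 cells. The single ciliated cell of BASCs-Tracer and the single AT2 cell of Scgb1a1-TD entered no comparison. No label names an animal, so each line counts as 1 sample, cells are not replicates, and no test between groups was run.

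Oxidative phosphorylation makes most of the ATP of a resting cell. Complexes I, III and IV pass electrons from NADH to oxygen and pump protons across the inner mitochondrial membrane, and complex V lets the protons back to make ATP. Complex II, which feeds electrons from succinate, has no mitochondrially encoded subunit, whereas the other complexes are built from products of both genomes, so that 2 separate transcript pools must supply each of them. In the lung, ciliated cells use ATP to beat their cilia, AT2 cells make surfactant lipid and protein, and club cells secrete protein and carry out oxidation of foreign compounds.

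The table held 492096494 reads, with 3379 to 3781974 per cell and a median of 1000465. The deposited values are raw counts of reads per gene. They were summed over the cells of a group and are given as CPM, reads per 1000000 gene-assigned reads. Intervals at the 95% level are Poisson intervals for levels and Clopper-Pearson intervals for shares of cells. They hold counting error only, because PCR reads without molecular identifiers are not independent molecules. The sub-type labels matched most markers: the 8 AT2 markers summed to 310726 to 399825 CPM in the BASC and AT2 groups and 29628 to 48505 CPM in club cells, while the 8 club markers summed to 231784 to 357629 CPM in club cells and 10749 to 24413 CPM in the BASC and AT2 groups. The 8 ciliated markers summed to 8623 CPM in the ciliated group and at most 103.01 CPM in the other 7 groups. The ciliated group also held 43013 CPM of club markers (cells 1720 to 282992, median 23118). Its highest cell lay within the range of club cells. The single ciliated cell of BASCs-Tracer had 232899 CPM of AT2 and 3541 CPM of ciliated markers. The BASC groups were thus close to AT2 cells in these lists. In the 11 BASCs of Sftpc-TD, 5 leukocyte markers summed to 270 CPM and 5 macrophage markers to 423 CPM, against at most 40 and 37 CPM in the other groups of 5 or more cells, and 1 cell held nearly all of it (5702 and 8239 CPM). No doublet caller was run. The 10 nuclear genes with most reads, led by Sftpc and Scgb1a1, held 27.1% to 43% of the reads of the other groups and 4.65% in ciliated cells, which bears on every share and level given for ciliated cells.

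Many mitochondrial genes have near-identical copies in the nuclear genome, and the reads of such stretches cannot be assigned by sequence. Across GENCODE M21 transcripts of GRCm38, 7 of 13 mitochondrial members shared 50% or more of their 50-base stretches with a transcript of another gene, and 5 of 13 shared 90% or more, against 1 and 0 of 89 nuclear members. These shares were 100% for mt-Co2, 99.9% for mt-Co3, 99.5% for mt-Atp6, 98.8% for mt-Nd4l, 98% for mt-Nd3, 62.2% for mt-Nd4 and 51.1% for mt-Co1. mt-Nd1, mt-Nd6, mt-Cytb and mt-Atp8 shared none, though sequence outside annotated transcripts was not searched. Among nuclear members, the complex I assembly factor Ndufaf2 shared 64.1% of its stretches and the complex V stalk subunit Atp5o 41.6%. To show how close the copies are, 90 bases of the complex IV catalytic subunit mt-Co1 and of the complex I subunit mt-Nd3 are printed 5′ to 3′ above the same stretch of their copies on chromosome 1. Capitals mark the bases that differ within each pair. The positions on GRCm38 are chrM:6383-6472 (plus strand) for mt-Co1, chr1:24616106-24616195 (minus strand) for Gm29216, chrM:9461-9550 (plus strand) for mt-Nd3 and chr1:24613028-24613117 (minus strand) for Gm28438.
mt-Co1: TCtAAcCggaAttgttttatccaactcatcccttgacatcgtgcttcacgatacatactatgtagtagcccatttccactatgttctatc
Gm29216: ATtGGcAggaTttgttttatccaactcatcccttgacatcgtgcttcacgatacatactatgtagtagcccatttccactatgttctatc
mt-Nd3: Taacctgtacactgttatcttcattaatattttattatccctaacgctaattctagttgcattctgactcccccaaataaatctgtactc
Gm28438: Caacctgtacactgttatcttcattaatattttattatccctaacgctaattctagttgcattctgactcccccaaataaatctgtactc

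Over 492 aligned bases the mt-Co1 copy had 6 mismatches (T1056A, C1057T, A1059G, A1060G, C1062A and A1066T, the member's base first and positions counted from 1 at the start of its transcript), all within the first bases of the printed stretch. The mt-Nd3 copy had 1 mismatch (T3C) over 345 bases. The copies of mt-Co2 (Gm28661, 681 bases), mt-Co3 (Gm28437, 783 bases), mt-Atp6 (Gm10925, 678 bases), mt-Nd4 (Gm28439, 876 bases) and mt-Nd4l (Gm10222, 294 bases) had 0 mismatches. Reads were counted at these copies too. Gm10925 stood at 430 CPM over all cells, with reads in 480 of 480 cells, and Gm29216 at 287 CPM. The sources used here do not say how reads that match both places were counted. The levels of the 7 mitochondrial members with such a copy are therefore uncertain. In addition, the exons of 32 nuclear and 10 mitochondrial members overlap those of another gene, and no source used here says that strand was used in counting.

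Levels per length differed widely among the mitochondrial members. Over all 480 cells, mt-Cytb, the mitochondrial subunit of complex III, was highest at 6110 CPM per kb of exon. mt-Co1 stood at 3604, mt-Nd1 at 2249, mt-Nd2 at 1778, mt-Nd5 at 1602, mt-Nd4 at 1390 and mt-Nd6 at 912 CPM per kb. The 5 members with 90% or more of their stretches in a copy were all lower, from 38.5 CPM per kb for mt-Nd3 to 425 for mt-Atp6. mt-Atp8, which shared no stretch with an annotated transcript but overlaps mt-Atp6, stood at 68.1 CPM per kb. Its neighbours mt-Co2 and mt-Atp6 both have copies, and a copy of mt-Atp8 outside annotated transcripts was not searched for. The nuclear members were lower than the leading mitochondrial ones: the highest of each complex were Ndufa1 (291 CPM per kb), Ndufaf8 (31.7), Uqcr11 (279), Cox6a1 (396) and Atp5a1 (127.88).

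**Figure D1:**
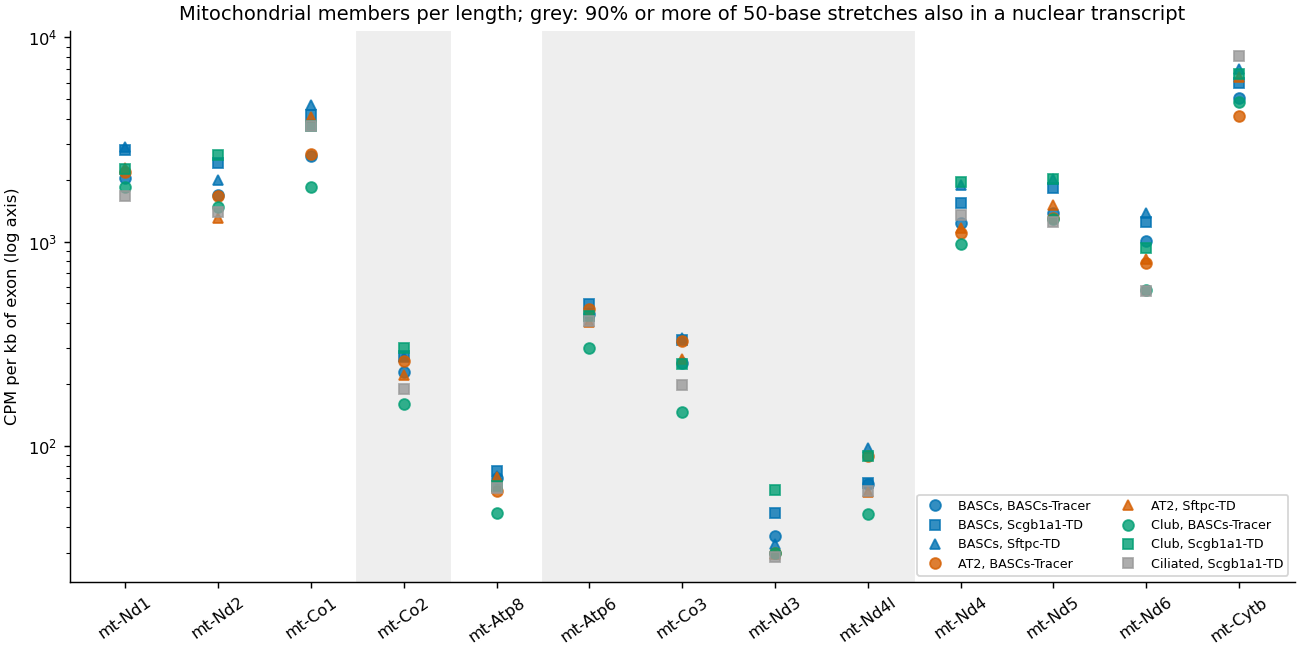
Levels of the 13 mitochondrial members per kb of exon (vertical log axis) in the 8 groups (symbols), in their order on mitochondrial DNA; grey bands mark members with 90% or more of their 50-base stretches in a nuclear transcript. mt-Cytb lies highest in every group and the 5 members in grey lie below mt-Nd1, mt-Co1 and mt-Cytb throughout.

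The mitochondrial members held about 2% of all reads and the nuclear members about 1%. Every value is relative to a cell's other reads, so fewer transcripts of the members and more of the remaining genes cannot be told apart. By line, the 13 mitochondrial members took 1.86% of all reads from BASCs-Tracer cells, 2.53% from Scgb1a1-TD cells and 2.29% from Sftpc-TD cells. The 89 nuclear members took 0.907%, 0.988% and 0.803% in the same order. The 2 parts therefore ordered the lines differently, and the ratio of mitochondrial to nuclear reads was 2.05, 2.56 and 2.86. Mitochondrial ribosomal RNA, which is no member, took 1.05%, 0.995% and 1.78% of reads.

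By sub-type, AT2 cells of Sftpc-TD had the lowest nuclear share, 0.796%, and ciliated cells the highest, 1.07%. Club cells of Scgb1a1-TD had 0.996%, club cells of BASCs-Tracer 0.944%, and the BASC groups 0.906% (BASCs-Tracer), 0.923% (Scgb1a1-TD) and 0.899% (Sftpc-TD). On all reads, BASCs of all 3 lines thus lay between AT2 and club cells in the nuclear share and close to each other. Within single plates this order was not constant. In Scgb1a1-TD, BASCs and club cells had 1.11% and 0.937% on plate 2 and 0.929% and 1.05% on plate 3. On plate 4 they had 0.882% and 0.839%. In BASCs-Tracer they had 0.871% and 0.974% on plate 1, and 0.962% and 0.928% on plate 2. In Sftpc-TD, BASCs and AT2 cells had 0.779% (4 BASCs) and 0.822% on plate 4, and 0.979% and 0.783% on plate 5. The mitochondrial share did not follow the order of the sums. It was 1.90%, 2.54% and 2.80% in BASCs of the same 3 lines, 2.58% and 1.61% in club cells of Scgb1a1-TD and BASCs-Tracer, 2.26% in AT2 cells of Sftpc-TD and 2.30% in ciliated cells. On all reads, BASCs and club cells of BASCs-Tracer were both below all 5 groups of the other lines.

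Single cells overlapped widely. The mitochondrial share ranged from 0.81% to 6.59% (median 1.84%) for BASCs of BASCs-Tracer, from 0.726% to 4.11% (median 2.20%) in AT2 cells of Sftpc-TD, and from 0.92% to 9.27% (median 2.32%) in club cells of Scgb1a1-TD. In ciliated cells it ranged from 1.21% to 4.79% (median 2.37%). BASCs of Scgb1a1-TD ranged from 1.15% to 4.83% (median 2.36%), and those of Sftpc-TD from 1.5% to 4.12% (median 2.82%). The nuclear share ranged from 0.525% to 1.75% (median 0.874%) for BASCs of BASCs-Tracer, from 0.529% to 1.49% (median 0.793%) in AT2 cells, from 0.48% to 1.91% (median 0.965%) in club cells of Scgb1a1-TD and from 0.577% to 1.94% (median 1.09%) in ciliated cells. No group was set apart from another by either share.

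**Figure D2:**
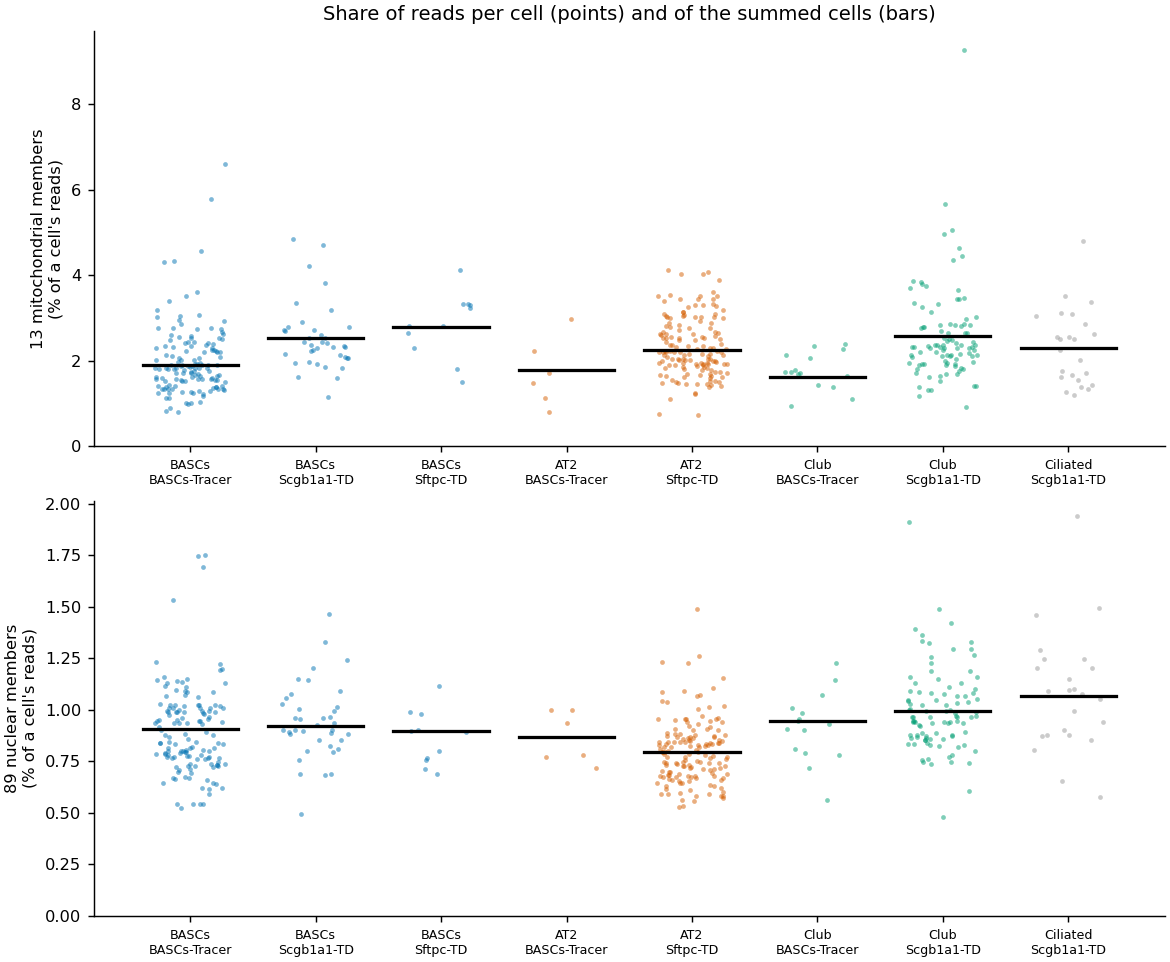
Share of each cell's reads in the 13 mitochondrial members (upper panel) and the 89 nuclear members (lower panel), in percent, by sub-type and line; points are cells and bars are the reads of all cells of a group summed. The points of all groups overlap in both panels, and the bars of all 3 BASCs-Tracer groups lie below 2% in the upper panel.

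Plate moved with the mitochondrial share. Over all cells, plates 1 to 5 had 1.69%, 2.20%, 2.44%, 2.70% and 2.11% of reads in mitochondrial members, and 0.876%, 0.960%, 1.03%, 0.840% and 0.794% in nuclear members. Plates 1 and 5 held only BASCs-Tracer and only Sftpc-TD, and plate 3 only Scgb1a1-TD, so that line and plate cannot be told apart there. Plates 2 and 4 held 2 lines each. On plate 2, BASCs had 2.20% in BASCs-Tracer (53 cells) and 2.36% in Scgb1a1-TD (5 cells), a smaller gap than the 1.90% and 2.54% of all plates. In summed reads, club cells kept theirs on that plate, with 1.55% in BASCs-Tracer (8 cells) and 2.53% in Scgb1a1-TD (22 cells). Their median cells were closer, at 1.74% and 2.22%. On plate 4, club cells of Scgb1a1-TD had 3.12%, BASCs of that line 2.79% and Sftpc-TD AT2 cells 2.64%. The plate 4 club cells had a cell median of 2.64%, and 1 of the 15 stood at 9.27%. The same AT2 group had 2.06% on plate 5, and BASCs of BASCs-Tracer had 1.71% on plate 1, so that groups of 1 line and sub-type differed between plates by as much as some sub-types did.

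A few abundant secretory and surfactant transcripts set part of these shares. With the 10 leading nuclear genes left out of the total, the nuclear share was 1.12% in ciliated cells, 1.24% in AT2 cells of Sftpc-TD, 1.56% in club cells of Scgb1a1-TD and 1.62% in BASCs of Scgb1a1-TD. In BASCs-Tracer, BASCs then had 1.44% and club cells 1.30%. The ciliated group, highest on all reads, was lowest on this total, and BASCs of both lines were above the club cells of their line. The order of ciliated cells, BASCs and club cells in the nuclear share therefore depended on the total used. The mitochondrial share was then 2.41% in ciliated cells, against 4.04% in club cells of the same line, and 3.01% in BASCs of BASCs-Tracer. In summed reads the mitochondrial share of ciliated cells was thus below that of these club cells on both totals, but the median ciliated cell (2.37%) was not below the median club cell (2.32%) on all reads. BASCs of BASCs-Tracer were below the ciliated group on all reads only.

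The shares of the 2 genomes were also compared across the cells of a group. Spearman's rho across cells of 100000 reads or more was 0.21 in BASCs of BASCs-Tracer (all but 5 of them), 0.27 in 37 BASCs of Scgb1a1-TD, 0.06 in 94 club cells of that line, -0.16 in 24 ciliated cells and 0.31 in AT2 cells of Sftpc-TD (all but 1). Pearson's r was 0.22, 0.34, -0.07, -0.11 and 0.21 in the same order. These are descriptions over cells that share a line, plates and a range of depths, and rho differed between plates. It was 0.12 and 0.06 in BASCs of BASCs-Tracer on plates 1 and 2, 0.51 in the 23 BASCs of Scgb1a1-TD on plate 3, 0.39 and -0.01 in club cells of that line on plates 2 and 3, and 0.17 and 0.37 in AT2 cells on plates 4 and 5. Between the mitochondrial share and depth, rho was -0.26 in both BASCs of BASCs-Tracer and AT2 cells, -0.29 in BASCs of Scgb1a1-TD, -0.34 in ciliated cells and -0.05 in club cells of Scgb1a1-TD, and on single plates it ranged from -0.70 to 0.04.

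Most nuclear members were detected in most cells. With each cell thinned to 100000 reads, the median cell had a read in 56 of 89 nuclear members in BASCs of BASCs-Tracer (lowest 32, highest 73), 56.5 in AT2 cells (30 to 67), 67 in club cells of Scgb1a1-TD (40 to 75) and 64 in ciliated cells (34 to 80). BASCs of Scgb1a1-TD had a median of 60, club cells of BASCs-Tracer 58 and BASCs of Sftpc-TD 57. Over all genes, the median cell had 3142 genes with a read in BASCs of BASCs-Tracer, 3089.5 in AT2 cells, 3795.5 in club cells of Scgb1a1-TD and 4295 in ciliated cells. Club cells of Scgb1a1-TD and ciliated cells thus had more members and more genes overall with a read at equal depth than the other groups named here. Over all cells, 80 nuclear members and all 13 mitochondrial members had 10 CPM or more and entered the ratios, and 9 did not: Ndufb2, Ndufaf5, Ndufaf6, Cox4i2, Cox7a1, Cox7b2, Cox8b, Cox8c and Ndufa4l2. Nuclear levels over all cells reached from 0 to 457 CPM, the highest being Atp5b, with a median of 81.4, and mitochondrial levels from 13.4 to 6990 CPM, with a median of 473.

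**Figure D3:**
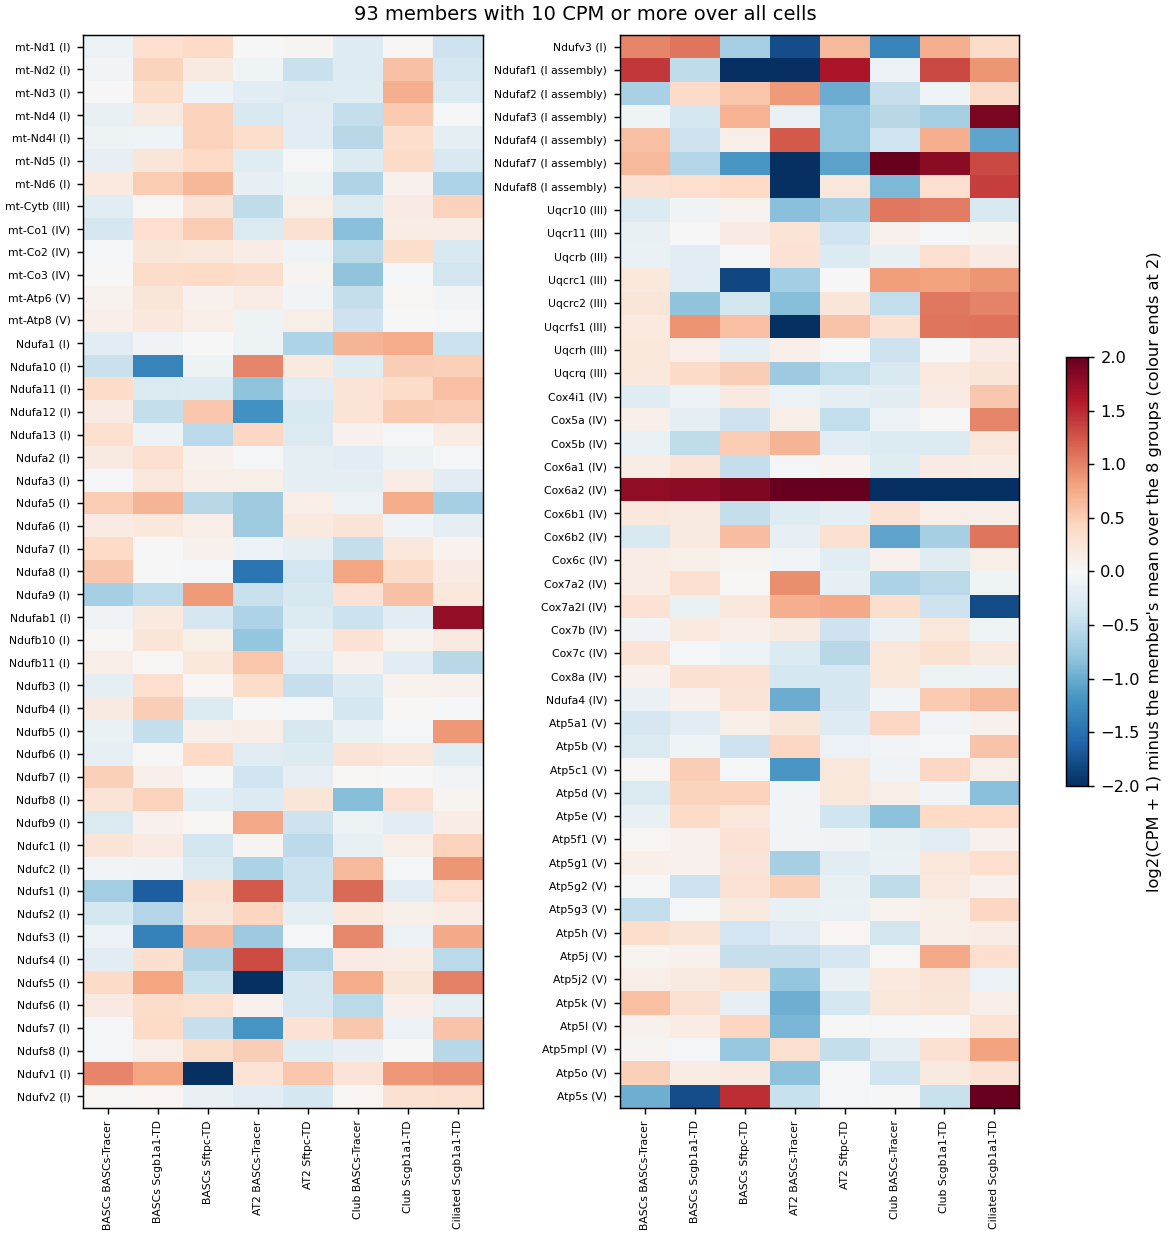
The 93 members with 10 CPM or more over all cells (rows, complex in brackets) in the 8 groups (columns), coloured by log2(CPM + 1) minus that member's mean over the 8 groups, with colours ending at 2 in either direction. Most rows are pale, Cox6a2 has the strongest contrast, and the 6-cell AT2 group of BASCs-Tracer is the most uneven column.

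Complex I takes electrons from NADH, and 7 of its subunits are mitochondrial. mt-Nd2, part of the proton-pumping membrane arm, was among the mitochondrial members that differed most by sub-type. It stood at 2750 CPM in club cells of Scgb1a1-TD (cells 706 to 10054, median 2502), 2512 in BASCs of the same line (931 to 6217, median 2322), 1446 in ciliated cells (309 to 3072, median 1235) and 1350 in AT2 cells of Sftpc-TD (160 to 3776, median 1299). BASCs of BASCs-Tracer and Sftpc-TD had 1764 and 2075 CPM, and club cells of BASCs-Tracer 1539. The cells of all these groups overlapped, and the median club cell of Scgb1a1-TD was above the median cell of every other group. Club cells of Scgb1a1-TD were 1.03 higher than AT2 cells on the log2(CPM + 1) scale (0.96 on plate 4, which both share) and 0.93 higher than ciliated cells, whose ratio to club cells was -0.89, -0.62 and -1.85 on plates 2, 3 and 4. mt-Nd4 followed the same order at 2701 CPM in club cells, 1854 in ciliated and 1606 in AT2 cells. mt-Nd3, read mostly through sequence it shares with its copy, stood at 21.2, 9.94 and 10.2 CPM.

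mt-Nd6, the only protein-coding gene on the other strand of mitochondrial DNA, was higher in BASCs than in the groups of the same line given here. The 6 AT2 cells of BASCs-Tracer are not among these groups. In BASCs-Tracer it stood at 523 CPM in BASCs and 299.6 CPM in club cells. In Scgb1a1-TD it stood at 649 CPM in BASCs, 484 in club cells and 297 in ciliated cells, and in Sftpc-TD at 719.9 in BASCs and 425 in AT2 cells. Its cells overlapped between all groups, for example 69 to 1513 CPM in BASCs and 182 to 673 CPM in club cells of BASCs-Tracer. The mt-Nd6 gene adjoins and overlaps mt-Nd5 in opposite orientation, so reads of the one and antisense reads of the other cannot be told apart here.

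Among nuclear complex I subunits, Ndufa1, a small membrane-arm protein encoded on the X chromosome (chrX:37187588-37191163, GRCm38), was highest in club cells. It stood at 212 CPM [209 to 214] in club cells of Scgb1a1-TD (cells 0 to 498, median 184, read in 95 of 97) and 201 [194 to 209] in club cells of BASCs-Tracer (0 to 401, median 108.04). It stood at 81.8 [80.6 to 83.1] in AT2 cells of Sftpc-TD (0 to 481, median 67.3) and 93 [89 to 97.1] in ciliated cells (0 to 227, median 62.7). The 3 BASC groups had 108.02, 120.4 and 126.3 CPM. Club cells of both lines were thus above all other groups in the sums, while single cells overlapped. Club over AT2 cells was 1.36 (log2; 1.10 on plate 4), ciliated over club -1.18 (-0.64, -1.09 and -1.63 on plates 2, 3 and 4), and BASCs over club -0.81 in Scgb1a1-TD (-0.36, -0.88 and -0.74 on the same plates) and -0.89 in BASCs-Tracer (-0.53 and -1.05 on plates 1 and 2). The value for BASCs-Tracer rests on few cells. Its deepest club cell held 22.1% of the reads of the 15 club cells and 44% of their Ndufa1 reads, and without it the group stood at 144.6 CPM. Without the cells that had 50 CPM or more of leukocyte and macrophage markers (22 BASCs and 5 club cells, that cell included), BASCs over club cells was -0.06, so the difference was not seen there. Both choices were made after seeing the data.

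Other complex I members were read in fewer cells. Ndufa10, an accessory subunit of the membrane arm, stood at 143.8 CPM in club cells of Scgb1a1-TD (read in 90 of 97 cells), 142.1 in ciliated cells and 39.7 in BASCs of the same line (24 of 38), a ratio of BASCs to club of -1.83 log2. In BASCs-Tracer it stood at 75 CPM in BASCs and 86 in club cells. Ndufs1, a subunit of the arm that accepts electrons, was lower in BASCs than in club cells in both lines. It stood at 16.9 CPM in BASCs (12 of 38 cells) and 47.2 in club cells (59 of 97) of Scgb1a1-TD, a ratio of -1.43 log2, with -0.06, -0.75 and -3.50 on plates 2, 3 and 4. In BASCs-Tracer it stood at 33.6 CPM in BASCs and 121.99 in club cells, a ratio of -1.83 (-1.52 and -2.42 on plates 1 and 2), but the deepest club cell gave 62.5% of the club reads of Ndufs1 and the group stood at 58.7 CPM without it. The median cell of these 4 groups had 0 to 3.47 CPM. Ndufv1, which binds the NADH-oxidising flavin, was nearly unread in BASCs of Sftpc-TD, with 0.557 CPM and a read in 2 of 11 cells, against 56 CPM in AT2 cells of that line. With 11 cells such a value rests on few transcripts. In ciliated cells, Ndufc2 (342 against 180 CPM) and Ndufb5 (158.2 against 83.7 CPM), both membrane-arm accessory subunits, were 0.93 and 0.91 above club cells.

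Assembly factors of complex I were low and patchy. Ndufaf7, which methylates a core subunit during assembly, stood at 79.2 CPM in Scgb1a1-TD club cells, against 9.95 in AT2 cells, a difference of 2.87 log2 (3.24 on plate 4). Ndufaf3 stood at 137.4 CPM in ciliated cells, read in 17 of 24, and 22.7 CPM in club cells, read in 43 of 97, a difference of 2.55 log2 (4.15, 2.31 and 3.08 on plates 2, 3 and 4). The exons of Ndufaf3 overlap those of Impdh2, which stood at 102.5 and 31.3 CPM in the same groups. Ndufaf3 shared 0 of its 1954 50-base stretches with a transcript of another gene, so the overlap bears at most on reads that fall within it. How those reads were counted was not tested. Ndufaf4 went the other way, with 5.68 CPM in ciliated and 21.9 CPM in club cells. The median cell had 0 reads of Ndufaf3 in 6 of the 8 groups.

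Complex III passes electrons from ubiquinol to cytochrome c. Uqcr10, a small subunit of its membrane part (chr11:4701973-4704342), was higher in club cells of both lines than in the other 6 groups. It stood at 274 CPM [271 to 278] in club cells of Scgb1a1-TD, read in 97 of 97 cells (9.28 to 720, median 264), and at 282 [273 to 291] in club cells of BASCs-Tracer (70.8 to 498, median 175). It stood at 85.1 [83.8 to 86.4] in AT2 cells of Sftpc-TD (0 to 338, median 79.8), 108.7 [104.4 to 113.1] in ciliated cells (1.61 to 376, median 82.7) and 111.6, 128.6 and 141.4 in the 3 BASC groups. The sums of the 2 club groups were about equal, and the median club cell of each line was above the median AT2, ciliated and BASC cell. Club over AT2 cells was 1.68 log2, or 3.20-fold, and 1.05 on plate 4. Ciliated over club cells was -1.33 (-0.64, -1.36 and -1.30 on plates 2, 3 and 4), BASCs over club cells -1.09 in Scgb1a1-TD (-0.50, -1.31 and -0.42) and -1.33 in BASCs-Tracer (-0.67 and -1.38 on plates 1 and 2). The size of these ratios varied between plates. Without the deepest club cell of BASCs-Tracer, which gave 27.3% of that group's Uqcr10 reads, the group stood at 263 CPM.

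The 2 core proteins of complex III were also lower in BASCs of Scgb1a1-TD than in its club cells. Uqcrc1 stood at 115.9 CPM in these BASCs, 239 in club cells, 252 in ciliated cells, 135.7 in AT2 cells of Sftpc-TD and 38.1 in BASCs of Sftpc-TD. Uqcrc2 stood at 34.3 CPM in BASCs (read in 21 of 38 cells), 126.2 in club cells (77 of 97), 121.4 in ciliated cells and 71.6 in AT2 cells. In BASCs-Tracer the order of Uqcrc2 was turned, with 71.6 CPM in BASCs and 42.5 in club cells. The mitochondrial member mt-Cytb, which carries the haems, was highest in ciliated cells at 9233 CPM (4063 to 25242, median 8488), against 7569 in club cells of that line, 7276 in AT2 cells, 8040 in BASCs of Sftpc-TD and 5746 in BASCs of BASCs-Tracer. It was the only mitochondrial member with a positive ratio of ciliated to club cells (0.29 log2). That sign depends on the total used. Median-of-ratios factors and totals without mitochondrial and leading genes lower all ratios of this pair by a similar amount. The nuclear median, for example, went from 0.02 to -0.62 and -0.59, a larger shift than 0.29.

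**Figure D4:**
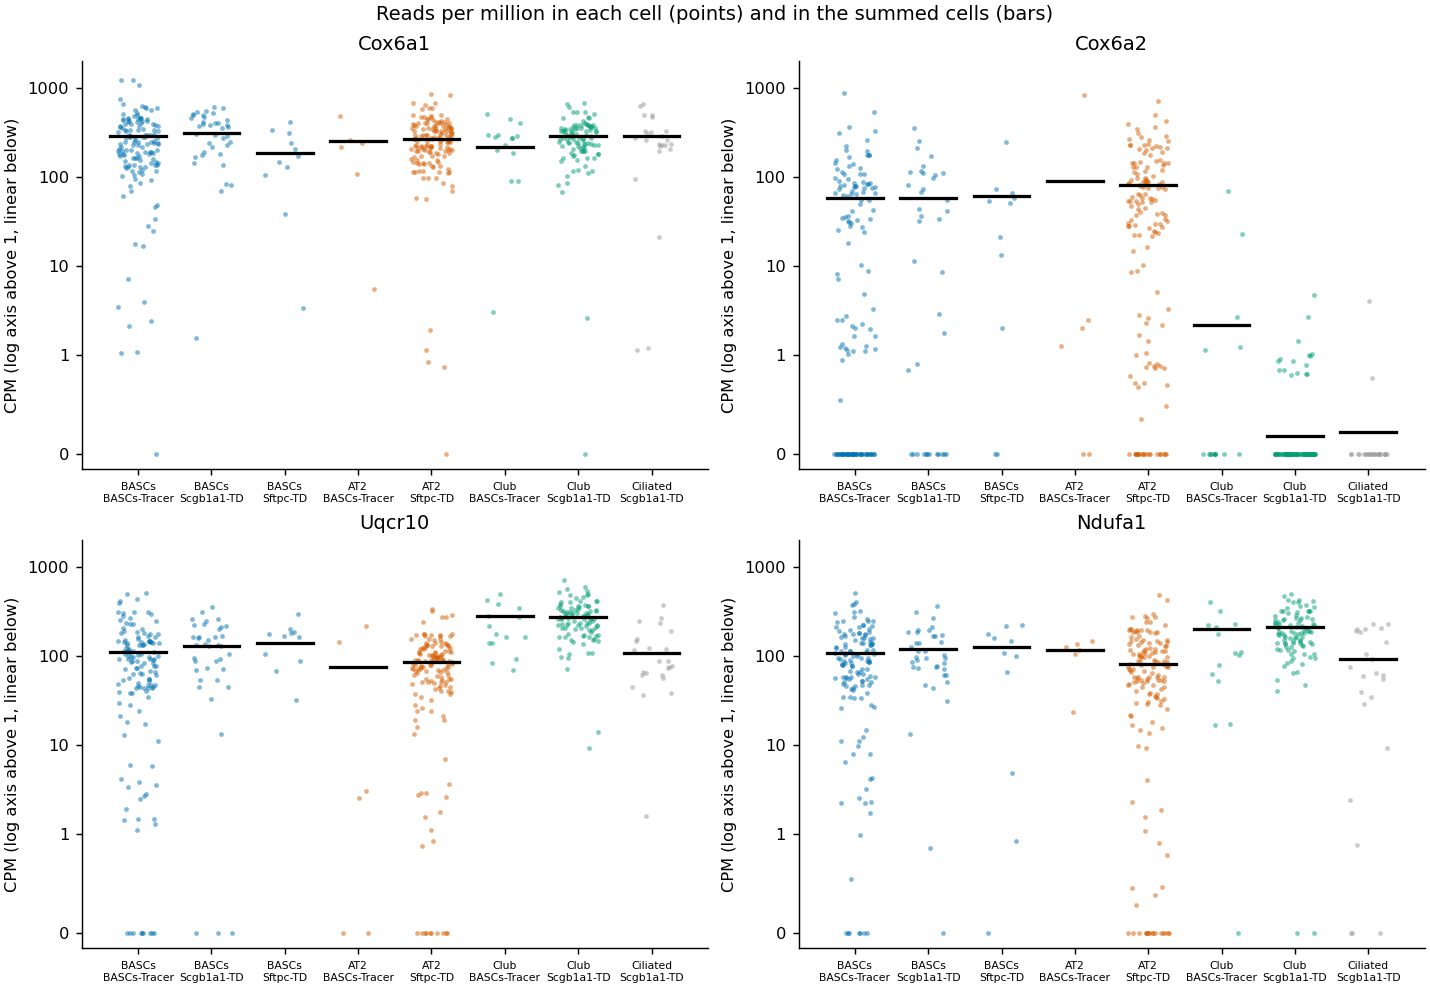
CPM of Cox6a1, Cox6a2, Uqcr10 and Ndufa1 in each cell (points; vertical axis logarithmic above 1 and linear below) and in the summed cells (bars) of the 8 groups. Cox6a1 has bars from 186 to 311 CPM. Cox6a2 is high in BASCs and AT2 cells and near 0 in club and ciliated cells, and Uqcr10 and Ndufa1 have their highest bars in club cells.

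Complex IV hands electrons to oxygen, and several of its nuclear subunits exist as pairs of isoforms. Cox6a1 is the isoform found in most tissues and Cox6a2 the one known from heart and skeletal muscle. Cox6a2 (chr7:128205435-128206387) had the largest ratio of any nuclear member in 3 of the 8 pairs of groups. It stood at 82.1 CPM [80.8 to 83.4] in AT2 cells of Sftpc-TD, read in 86.6% of cells (0 to 722, median 49.6). It stood at 58.2 [56.7 to 59.7] in BASCs of BASCs-Tracer (66.7% of cells; 0 to 888, median 7.77), 58.6 [56.2 to 61] in BASCs of Scgb1a1-TD (26 of 38; 0 to 357, median 33) and 61.8 [57.5 to 66.3] in BASCs of Sftpc-TD (9 of 11; 0 to 245, median 51.8). It stood at 0.185 [0.110 to 0.293] in club cells of Scgb1a1-TD (18 reads, 16 of 97 cells, highest 4.76) and at 0.227 [0.0737 to 0.530] in ciliated cells (5 reads, 2 of 24 cells, highest 4.09). Every BASC and AT2 group was thus above every club and ciliated group in the sums, and the highest single club or ciliated cell of Scgb1a1-TD was below the median BASC of that line. In the 15 club cells of BASCs-Tracer it stood at 2.21 CPM, 32 reads in 5 cells, with 1 cell at 70.2. In the 6 AT2 cells of that line 1 cell at 831 CPM gave most of the 91.5 CPM.

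At equal depth the split of Cox6a2 was the same. With cells thinned to 100000 reads, a read was found in 70.9% of AT2 cells [62.9% to 78.1%], 51.9% of BASCs of BASCs-Tracer [43.1% to 60.6%], 59.5% of BASCs of Scgb1a1-TD [42.1% to 75.2%; 22 of 37], 3.19% of club cells of that line [0.663% to 9.04%; 3 of 94] and 0 of 24 ciliated cells [0% to 14.2%]. The ratio of BASCs to club cells was 5.65 log2 in Scgb1a1-TD, or 50.3-fold, with 6.42, 5.76 and 5.25 on plates 2, 3 and 4. It was 4.20 in BASCs-Tracer, with 5.06 and 3.61 on plates 1 and 2, and club over AT2 cells was -6.13, with -6.25 on plate 4. Among BASCs and AT2 cells the differences in the sums were small. They were -0.49 for BASCs of BASCs-Tracer and -0.40 for BASCs of Sftpc-TD against AT2 cells. Between BASCs of BASCs-Tracer and of Scgb1a1-TD the difference was -0.01, though -1.41 within plate 2, where Scgb1a1-TD had 5 BASCs. At equal depth, however, a read was found in a smaller share of BASCs of BASCs-Tracer (51.9%) than of AT2 cells (70.9%). The Cox6a2 exons overlap those of Itgad, an integrin gene of leukocytes, which had reads in 6 of 480 cells and 0.356 CPM over all cells. Cox6a1 (chr5:115345642-115348981) stood at 186 to 311 CPM in all 8 groups, those with Cox6a2 included.

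The other isoform pairs of complex IV showed no such split. Cox4i1, the general isoform of a regulatory subunit, stood at 302 to 519 CPM, highest in ciliated cells, while Cox4i2, its hypoxia-responsive isoform, reached 7.90 CPM in BASCs of BASCs-Tracer (19.6% of cells) and had 0 reads in the 24 ciliated cells. Cox6b2, a testis isoform, stood at 4.21 to 21.8 CPM, and the muscle isoform Cox7a1 at 0 to 4.53. Cox7a2l, which ties complexes III and IV into supercomplexes, was higher in AT2 cells (197 CPM, median cell 139.8) than in club cells of Scgb1a1-TD (86.6, median 68.1) and ciliated cells (33.1, median 11.3), with 105.9 and 134.6 CPM in BASCs of Scgb1a1-TD and Sftpc-TD and 149.4 in club cells of BASCs-Tracer. Club over AT2 cells was -1.17 for it (-1.86 on plate 4), opposite to Uqcr10 and Ndufa1. Cox5a, a subunit that binds thyroid hormone metabolites, stood at 63.8 CPM in ciliated and 32.3 in club cells. mt-Co1 was lower in BASCs-Tracer than elsewhere, with 4048 CPM in its BASCs and 2852 in its club cells, against 5668 to 7237 in the 5 groups of the other lines, but BASCs of the 2 lines on plate 2 differed by only -0.19 log2, against -0.67 over all plates.

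Complex V makes ATP. Atp5b, its catalytic subunit, was the most read nuclear member and stood at 718 CPM in ciliated cells (181 to 1676, median 661), 478 in club cells of Scgb1a1-TD, 446 in AT2 cells and 362 to 456 in the BASC groups. The ciliated to club ratio of 0.59 log2 for Atp5b was not kept under another scaling, being -0.06 with median-of-ratios factors and -0.02 on totals without mitochondrial and leading genes. Atp5j, a stalk subunit, stood at 337 CPM in Scgb1a1-TD club cells and 253 in ciliated cells. In AT2 cells its interval was 155.2 to 158.8 CPM, and club over AT2 cells was 1.10 log2 (0.58 on plate 4). Atp5s, also called factor B, stood at 88.6 CPM in ciliated cells, but with reads in only 8 of 24, and at 13.6 CPM in club cells. The 3 genes that encode the proton-carrying c subunit stood in a similar range in all groups, 48 to 98 CPM for Atp5g1, 28 to 57 for Atp5g2 and 75.6 to 140.2 for Atp5g3. mt-Atp6, the proton channel subunit, stood at 277 CPM in ciliated cells, 294 in club cells of the same line and 276 in AT2 cells.

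Across the members, 8 pairs of groups were compared gene by gene as log2 ratios of CPM + 1. A gene was counted as higher or lower past 1.5-fold, and the same was done for all 8245 genes of 10 CPM or more over all cells, so that the members' counts can be read against that background. Between plates of 1 group, the difference of 2 median log2 levels had an SD of 0.210 for nuclear and 0.330 for mitochondrial members. It serves here as the spread between plates and rests on 2 or 3 plates per group. No label names an animal, so it may also hold differences between animals.

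Ciliated and club cells of Scgb1a1-TD were the pair in which both genomes stood farthest below the rest of the transcriptome. Of all genes, 46.1% were higher and 21.3% lower in ciliated cells, with a median of 0.47. Of 80 nuclear members 12 were higher and 7 lower, with a median of 0.02. Of 13 mitochondrial members 0 were higher and 5 lower, with a median of -0.54. Relative to all genes the nuclear median was -0.45 and the mitochondrial median -1.01. On plates 2, 3 and 4 the all-gene median was 0.26, 0.36 and 0.31, the nuclear median 0.26, -0.01 and 0.15, and the mitochondrial median -0.45, -0.33 and -0.98. The mitochondrial median was thus below the all-gene median on each plate. Over all plates it was beyond the spread of 0.330 between plates, but on plate 3 alone (-0.328) it was not. That spread was taken on levels and not on gaps to all genes. The nuclear gap was absent on plate 2 and small on plate 4. The nuclear complexes were alike, with medians from -0.02 for complex I (6 higher and 3 lower of 35) to 0.11 for complex V (2 higher and 1 lower of 17). Scaling by median-of-ratios factors or by totals without mitochondrial and leading genes gave nuclear medians of -0.62 and -0.59 and mitochondrial medians of -1.16 and -1.14, so only the position relative to other genes is read here.

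BASCs and club cells of the same line differed little as a whole. In Scgb1a1-TD, 23.4% of all genes were higher and 32% lower in BASCs, with a median of -0.11. There 3 nuclear members were higher and 17 lower (median -0.02), and 0 mitochondrial members passed in either direction (median -0.12). All 3 of the higher ones were subunits of complex IV, among them Cox6a2 and Cox7a2, a general isoform that stood at 166 against 90.4 CPM, while 8 of the 17 lower ones were of complex I, 3 each of its assembly factors and complexes III and V, and 0 of complex IV. The 3 higher ones of 14 complex IV members are near the all-gene share, while 0 lower ones is below it. In BASCs-Tracer, 38% of all genes were higher and 25.9% lower, with a median of 0.17. There 17 nuclear members were higher and 10 lower (median 0.07), and 2 mitochondrial members were higher and 0 lower (median 0.46). The mitochondrial median in BASCs-Tracer was -0.02 on plate 1 and 0.89 on plate 2, so it rests on plate 2, with 8 club cells. Without the cells with leukocyte and macrophage markers it was 0.06, 0 mitochondrial members were higher, and 17 nuclear members were higher and 4 lower. Of 14 complex IV members in BASCs-Tracer 3 were higher, a smaller share than of all genes, and 0 lower.

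BASCs were set against AT2 cells in Sftpc-TD and across lines. In Sftpc-TD, 18.9% of all genes were higher and 42.8% lower in the 11 BASCs, with a median of -0.34. Of the nuclear members 18 were higher and 7 lower (median 0.26), and of the mitochondrial members 4 were higher and 0 lower (median 0.34). On plate 5, the only plate with 5 or more cells of both, the medians were 0.40 and 0.51. Without cells of 50 CPM or more of leukocyte and macrophage markers (4 of the 11 BASCs and 25 AT2 cells), 17 nuclear members were higher and 15 lower (median 0.13), and 3 mitochondrial members were higher (median 0.31). In AT2 cells most of these marker reads were of Cd68 (32.1 CPM), with Marco, Adgre1 and Siglecf at 0. With all cells kept, the nuclear and mitochondrial medians were 0.60 and 0.68 above the all-gene median, on the other side of 0. The all-gene background holds genes down to 10 CPM and was not matched to the members by level. BASCs of BASCs-Tracer against AT2 cells of Sftpc-TD had 16% of all genes higher and 17% lower, with a median of 0.01. There 13 nuclear members were higher and 3 lower (median 0.25), and 0 mitochondrial members were higher and 1, mt-Co1, lower (median 0.04). These groups share no plate, so line, plate and sub-type cannot be told apart, and the nuclear medians of both comparisons are near the spread of 0.210 between plates. Both comparisons use the same AT2 cells.

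Club cells of Scgb1a1-TD against AT2 cells of Sftpc-TD had 21.9% of all genes higher and 28.6% lower, with a median of -0.06. Of the nuclear members 24 were higher and 3 lower (median 0.30), and of the mitochondrial members 3, mt-Nd2, mt-Nd3 and mt-Nd4, were higher and 0 lower (median 0.18). Complex III stood highest, with 5 of 8 members higher, 0 lower and a median of 0.65, followed by the assembly factors of complex I (3 of 6 higher, median 0.51), complex I (9 of 35, median 0.30), complex V (4 of 17, median 0.22) and complex IV (3 of 14 higher and 3 lower, median 0.18). On plate 4, which holds 15 club and 60 AT2 cells, the nuclear median was -0.0049 and the mitochondrial 0.24. The nuclear lean over all plates was therefore not seen within the shared plate as a whole. On that plate the assembly factors had a median of 0.55 and complex III 0.32, so complex III did not stand highest there. Complexes V, I and IV had -0.0036, -0.026 and -0.21.

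The same sub-type was also compared between lines. For BASCs, BASCs-Tracer over Scgb1a1-TD gave 29.8% of all genes higher and 13.6% lower, with a median of 0.18. Of the nuclear members 10 were higher and 3 lower (median -0.04), and of the mitochondrial members 0 were higher and 1 lower (median -0.33). In club cells, BASCs-Tracer over Scgb1a1-TD gave 27.3% of all genes higher and 35.1% lower, with a median of -0.08. Of the nuclear members 6 were higher and 15 lower (median -0.11), and of the mitochondrial members 0 were higher and 9 lower (median -0.78). With levels averaged over cells this mitochondrial median was -0.53. Without cells with leukocyte and macrophage markers, a choice made after seeing the data, it was -0.51. All 13 mitochondrial members had a negative ratio in both comparisons, and in club cells the median was beyond the pooled SD of 0.330 between plates. That pooled value may understate the spread of this pair. Between plates, the SD of mitochondrial levels was 0.429 in club cells of BASCs-Tracer, the largest of any group, and 0.236 in those of Scgb1a1-TD. Within plate 2 the mitochondrial medians were -0.17 for BASCs and -1.03 for club cells, so the difference in BASCs was within the pooled SD on the shared plate. The 2 nuclear medians were within the spread of nuclear members.

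**Figure D5:**
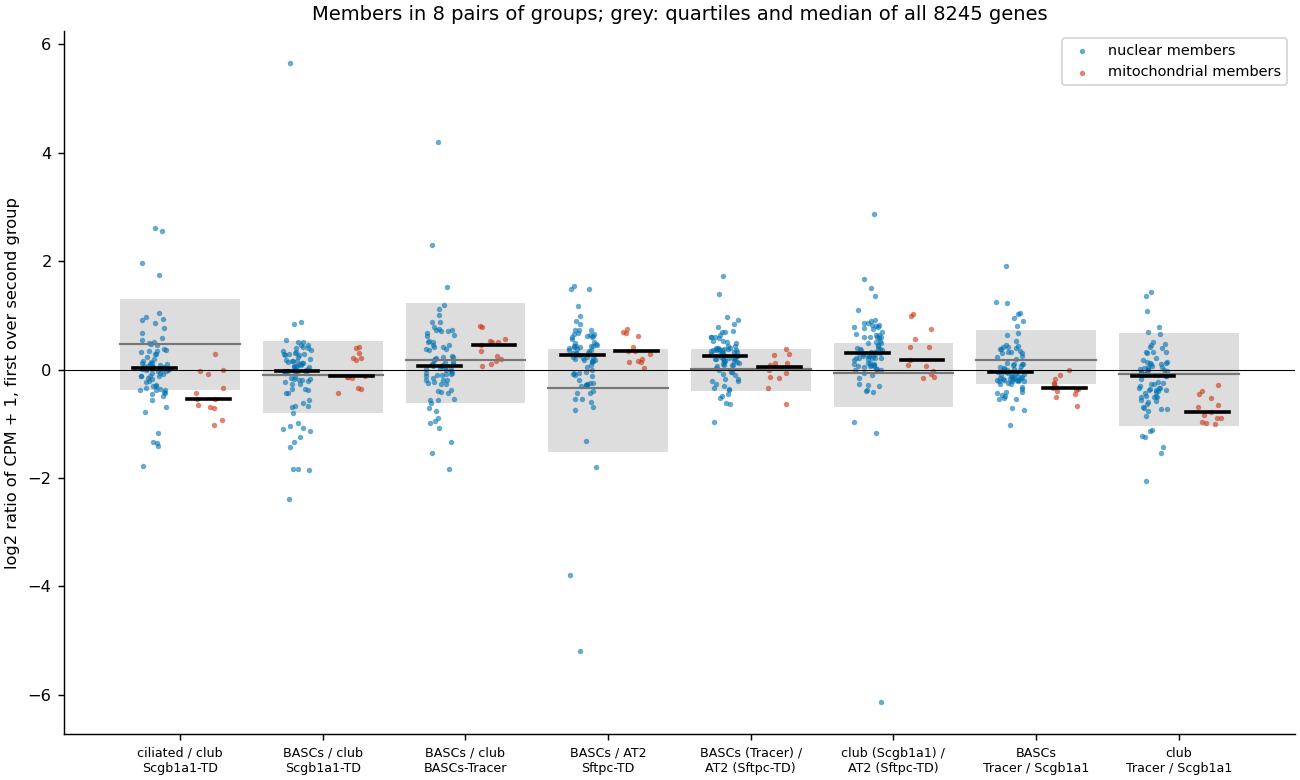
Log2 ratios of CPM + 1 for the nuclear (blue) and mitochondrial (red) members in the 8 pairs of groups named on the horizontal axis, with black bars at their medians and grey boxes for the quartiles and median of all 8245 genes. The mitochondrial medians of the ciliated to club pair (-0.54) and of the club cells of both lines (-0.78) lie lowest, and the points farthest from 0 in the positive and negative direction are Cox6a2.

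Other mitochondrial gene lists were compared in ciliated cells in the same way. Against club cells, and beside all genes with 46.1% higher, 21.3% lower and a median of 0.47, 14 of 20 genes of the outer membrane, carriers and import were higher and 1 lower (median 0.86), and 8 of 10 genes of mitochondrial DNA maintenance and transcription were higher and 0 lower (median 1.11). Of 18 tricarboxylic acid cycle genes 8 were higher and 1 lower (median 0.54), of 71 mitochondrial ribosomal proteins 33 and 7 (median 0.46), and of 10 regulators of mitochondrial biogenesis 6 and 2 (median 0.66). Of 9 genes of complex II and the electron carriers 3 were higher and 2 lower (median 0.34), and of 16 assembly factors of complexes III, IV and V 4 and 3 (median 0.45). The counts of higher genes of the cycle and the ribosomal proteins were near the all-gene share, and those of complex II and the assembly factors were below it. The first 2 lists, the cycle and the regulators had medians above that of all genes, while complex II and the carriers, like the subunits of both genomes, had a median below it. Idh3a, a catalytic subunit of the cycle's isocitrate dehydrogenase, stood at 244 CPM in ciliated cells (21 of 24 cells) and 79 in club cells. Slc25a4, which exchanges ATP for ADP across the inner membrane, stood at 306 and 106.5 CPM. Ppargc1a, a coactivator of mitochondrial biogenesis, stood at 82.8 CPM (15 of 24 cells) and 18.2 CPM, and its partner receptor Esrrg at 36.9 CPM (8 of 24 cells) and 0.350 CPM (3 of 97).

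Glycolysis is the other source of ATP. Of 17 glycolysis genes 8 were higher and 2 lower in club cells of Scgb1a1-TD than in AT2 cells (median 0.52), beside 21.9% and 28.6% of all genes (median -0.06). In BASCs against club cells of Scgb1a1-TD 1 was higher and 9 lower (median -0.82), beside 23.4% and 32% of all genes (median -0.11). In BASCs-Tracer 3 were higher and 9 lower (median -0.61), beside 38% and 25.9% of all genes (median 0.17). Ldhb, a subunit of lactate dehydrogenase, had the highest levels, with 2665 CPM in club cells of Scgb1a1-TD, 1646 in club cells of BASCs-Tracer, 1329 in ciliated cells, 345 in AT2 cells and 256 to 458 in the BASC groups. Hk2, an inducible hexokinase, stood at 0.409 CPM in ciliated cells and 42.3 in club cells of the same line. Genes of complex II and the electron carriers, 9 in number, were 0 higher and 4 lower in BASCs than in club cells of Scgb1a1-TD (median -0.47), 0 higher and 3 lower in BASCs-Tracer (median -0.05), and 4 higher and 0 lower in club than in AT2 cells (median 0.36). These counts stand beside the same all-gene shares and rest on 9 genes.

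Promoters of the nuclear members were searched on both strands for 4 short motifs in RefSeq windows of GRCm38.p6, 250 bases before to 50 after each start. A window was found for 73 of 89 nuclear members, 78 windows in all, and 20280 windows of other protein-coding genes were searched alike. GCGCATGC, the core of the site of NRF1, a factor known for nuclear respiratory genes, was in 14.1% of member windows and 3.61% of the others. AAGATGGC, the YY1 motif, was in 14.1% and 3.05%, CCGGAAGT, the ETS motif bound by GABPA, in 6.41% and 5.33%, and TCAAGGTCA, the site of estrogen-related receptors, in 1.28% and 0.335%. The members with the NRF1 core were Atp5g2, Atp5k, Atp5l, Cox6a1, Ndufa11, Ndufa6, Ndufa8, Ndufaf4, Ndufaf5, Uqcr11 and Uqcrc1. Stretches of 90 bases from 3 windows are printed 5′ to 3′ as examples of windows with the first 3 motifs, which are in capitals and may be on either strand: Cox6a1 at chr5:115349074-115349163, Uqcr11 at chr10:80406812-80406901 and Atp5j at chr16:84835017-84835106, all on the minus strand.
Cox6a1: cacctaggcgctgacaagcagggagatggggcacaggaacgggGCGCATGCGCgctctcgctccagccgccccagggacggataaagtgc
Uqcr11: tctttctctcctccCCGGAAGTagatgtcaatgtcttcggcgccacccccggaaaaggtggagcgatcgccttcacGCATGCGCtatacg
Atp5j: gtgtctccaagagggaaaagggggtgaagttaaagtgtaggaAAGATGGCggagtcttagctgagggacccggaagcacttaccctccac

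In these windows Cox6a1, at 186 to 311 CPM over the groups, held the NRF1 core on both strands as 1 palindrome. Uqcr11, a small complex III subunit level between ciliated and club cells (208 and 197 CPM), held the NRF1 core and the ETS motif. Atp5j held the YY1 motif. A match of letters is a description and shows no binding.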

How the data were processed

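The authors deposited raw read counts per gene for 480 cells. HISAT2, HTSeq and GRCm38 are named in the submitters' processing notes, with versions and settings not given in the sources used here. Per the labels' protocols, sorted cells were reverse transcribed with SuperScript II, amplified with KAPA polymerase and made into libraries with Nextera XT. All 480 columns were joined to samples by the names in the labels, 0 columns held identical values, and 53274 gene identifiers matched GENCODE M21. Counts were summed per line and annotated sub-type and divided by the gene-assigned total (CPM). Ratios are log2(CPM + 1), for genes of 10 CPM or more over all cells, so folds of low genes are understated. Depth was 3379 to 3781974 reads per cell, with 12 cells under 100000. Thinning drew 100000 reads per cell, and plate values need 5 cells of both groups. The ratio code was tested on simulated data. Named genes were all 13 mitochondrial members, isoform pairs, the highest member per length, and per complex the largest ratios in each direction that kept their sign on every shared plate. Genes of the other lists were picked from those past 2-fold in a pair. A few more (Uqcrc1, Uqcrc2, Ndufa10, Ndufaf3, Ndufv1, Cox4i1) are given in groups beyond those where the rule named them. The members and lists were chosen with earlier results of these data known. Alternatives were another scaling, pseudocount, filter, fold, cell choice, cell weight and plate. Python 3.11.15 with numpy 2.4.6, pandas 2.3.3, scipy 1.17.1 and matplotlib 3.10.9 was used.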

Additional observations from a re-analysis of the deposited data

How the results depend on the processing

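No paired analysis was possible because no label names an animal or a numbered replicate within a group, and no test was run; plates shared by 2 groups gave within-plate values instead. Of the medians recomputed under the alternatives, 276 stayed within the spread between plates and 20 did not. The cause was not tested. Some of the 276 could not move. The 2-fold call changes no median, and dropping only nuclear members changes no mitochondrial median. A limit of 10% on the mitochondrial share left out 0 cells, so it could move no median and no single member. The count therefore overstates how stable the medians were. For ciliated against club cells, median-of-ratios scaling gave a nuclear median of -0.62 and a mitochondrial one of -1.16, totals without mitochondrial and the 10 leading genes -0.59 and -1.14, and leaving out plate 3 0.23 and -0.93; plate 2 alone gave 0.26 for nuclear and plate 4 alone -0.98 for mitochondrial members. For BASCs against club cells, the nuclear median was 0.22 on plate 2 in Scgb1a1-TD and 0.31 on totals without leading genes in BASCs-Tracer; there the mitochondrial median was 0.89 without plate 1, which is plate 2 alone, -0.021 without plate 2, which is plate 1 alone, and 0.056 without cells with leukocyte or macrophage markers of 50 CPM or more, a choice made after seeing the data. Median-of-ratios scaling gave nuclear medians of 0.50 for BASCs against AT2 cells in Sftpc-TD and -0.26 for BASCs between lines, totals without leading genes gave -0.34 for club cells between lines, and plate 4 gave -0.0049 for club against AT2 cells.

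Over all alternatives, a call at 2-fold in place of 1.5-fold included, the counts of nuclear members higher and lower ranged from 4 to 29 and 4 to 42 for ciliated against club cells, 1 to 26 and 11 to 23 for BASCs against club cells in Scgb1a1-TD, 6 to 27 and 4 to 16 in BASCs-Tracer, 4 to 33 and 4 to 15 for BASCs against AT2 cells in Sftpc-TD, 2 to 22 and 0 to 6 across lines, 5 to 27 and 2 to 11 for club against AT2 cells, 5 to 15 and 1 to 20 for BASCs between lines, and 3 to 15 and 7 to 29 for club cells between lines. Of the single members, 3355 values stayed, 386 moved and 7 changed sign: Atp5b for ciliated against club cells (-0.058 and -0.023 under the other scalings), Ndufaf1 without plate 3 (0.071) for BASCs against club cells in Scgb1a1-TD, Uqcrh without leukocyte-marker cells (-0.0075) in BASCs-Tracer, Ndufa9 with thinned cells (-0.049) for BASCs against AT2 cells in Sftpc-TD, and Cox7a2l (-0.23) and mt-Nd4l (0.10) without plate 2 for club cells between lines. Cox6a2 stayed between 2.75 and 6.42 for BASCs against club cells in Scgb1a1-TD and between -6.71 and -3.18 for club against AT2 cells.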
